A study of Homo sapiens with 3 samples.

Results

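The transcription factor genes JUN, JUNB, JUND, FOS, FOSB, FOSL1, FOSL2, ATF3 and EGR1 and the immediate early gene IER2 were followed in C4-2 cells. These 10 genes were taken by symbol, through GENCODE, from the 58302 genes of the count tables, and all 10 were found. C4-2, an established human prostate adenocarcinoma line, is a castration-resistant descendant of LNCaP that still expresses the androgen receptor. All 3 libraries came from C4-2 cells labelled wild type, with no treatment named, and form 1 group, replicates 1 to 3. Total RNA depleted of ribosomal RNA was sequenced. The series was set up to compare such cells with neuroendocrine lines and to deplete neuropilin-2 in the latter; such samples are not used here, and no contrast between conditions is made. Nothing in the labels says whether the replicates were separate cultures, so the tests see no more than the variation among 3 libraries, and that may be technical.

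Activator protein 1 (AP-1) is a dimer of basic leucine zipper proteins. JUN proteins pair with themselves or with FOS proteins, whereas FOS proteins need a JUN partner to bind DNA stably. Immediate early genes are transcribed soon after cells meet serum, growth factors or stress, without the need for new protein, and many of their messages are short-lived. MAP kinases and the factors SRF, ELK1 and CREB1 carry the signal to their promoters. In prostate cells, AP-1 proteins are known as modulators of androgen receptor activity.

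The promoters of these genes are shown because they carry the sites through which that induction is known to run. RefSeq (GRCh38.p14) gave a window from 250 bases before to 50 after the transcription start for 9 of the 10 genes, with 2 windows for ATF3 and none for FOSL1. Capitals mark motif matches on either strand, and each stretch is read along the gene's own strand, 5′ to 3′. The letters TGACGT are the core of the cAMP response element TGACGTCA, so each full element also counts as a core match, and TGACATCA is a variant bound by JUN and ATF family dimers.
EGR1, chr5:138465333-138465427, plus strand: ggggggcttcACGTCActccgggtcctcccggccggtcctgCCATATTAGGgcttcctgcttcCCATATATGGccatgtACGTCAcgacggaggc
FOS, chr14:75278754-75278810, plus strand: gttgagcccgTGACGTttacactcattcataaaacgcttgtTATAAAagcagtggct
FOSB, chr19:45467926-45467981, plus strand: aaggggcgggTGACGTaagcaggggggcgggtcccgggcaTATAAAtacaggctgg
FOSL2, chr2:28392782-28392807, plus strand: agtctggggtTGACGTgagtgaatcc
JUND, chr19:18281694-18281832, minus strand: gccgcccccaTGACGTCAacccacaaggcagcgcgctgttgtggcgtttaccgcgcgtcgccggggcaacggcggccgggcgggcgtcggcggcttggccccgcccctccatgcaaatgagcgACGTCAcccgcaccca
JUN, chr1:58784097-58784124, minus strand: ggccttggggTGACATCAtgggctattt
ATF3, upstream start, chr1:212565274-212565301, plus strand: acctatgataTGACATCAtatggccact

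The core TGACGT lay in the windows of JUND, FOS, FOSB, FOSL2 and EGR1, 5 of 10 windows, and in 7.98% of all 35116 RefSeq promoter windows. In FOS, FOSB and FOSL2 it began 64, 60 and 66 bases upstream of the start. The full element TGACGTCA was found in JUND alone among the 10 windows and in 1.85% of all windows. The variant TGACATCA was found in JUN, 67 bases upstream, and in the upstream window of ATF3, and in 2.61% of all windows. The CArG box, the SRF site, was matched by its usual pattern in EGR1 alone among the 10 windows, at −105 and −83, and in 1.29% of all windows. Bases more than 250 upstream were not searched, so a window without a match does not show that the gene lacks the site. TATAAA was matched in FOS, FOSB and JUNB at −33, −30 and −31 and in the downstream ATF3 window at −230, against 11.5% of all windows. The AP-1 site searched as TGANTCA was matched in FOSL2 only, 5 bases past the start, against 7.71% of all windows. IER2 held none of these letters in its window. The matches did not sort the genes by level: FOS, FOSB and EGR1, at about 1 TPM or below, hold the same core as JUND, the highest of the 10.

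**Figure D1:**
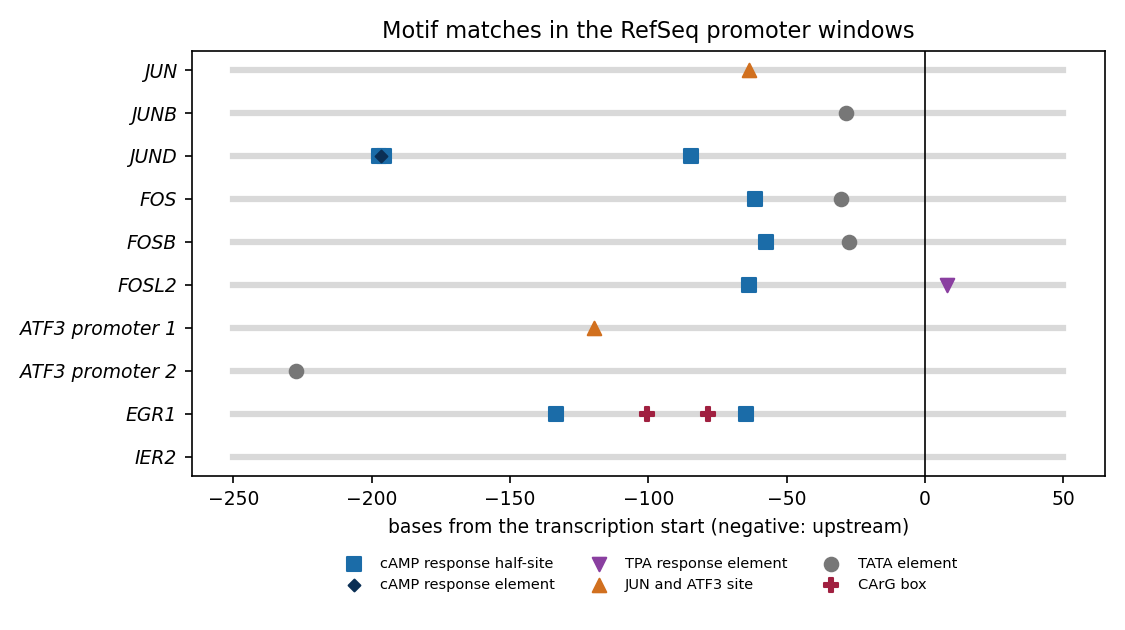
Motif matches by distance from the transcription start, in bases, in the 10 RefSeq promoter windows of 9 genes. Each symbol is a match on either strand. FOS, FOSB and FOSL2 carry the cAMP response core at a like distance from the start. Both CArG matches found within these windows lie in EGR1.

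The 3 JUN genes were the most abundant of the 10, in the order JUND, JUNB, JUN. Levels are given as TPM, reads scaled by exon length and then to the same total in every library, as mean ± SD over n = 3 libraries. JUND, which encodes a JUN protein present in many resting cells, had 7942, 7682 and 8240 reads in replicates 1, 2 and 3, or 254, 268 and 265 TPM. Its mean of 262 ± 7.31 TPM placed it at the 97.9th percentile of the 19708 protein-coding genes. JUNB had 3395, 3160 and 3352 reads, or 111, 113 and 110.3 TPM (111 ± 1.24, 93.9th percentile). JUN, the founding member, had 3022, 2786 and 3227 reads, or 50.8, 51.1 and 54.6 TPM (52.2 ± 2.09, 85.6th percentile). The libraries of each JUN gene lay close together, and no library of one overlapped those of another.

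FOSL2 was the only FOS gene above 2 TPM. This gene, which encodes FRA-2, had 3218, 3248 and 3175 reads, or 26.8, 29.5 and 26.6 TPM (27.6 ± 1.62, 74.8th percentile), with replicate 2 the highest. FOSL1, which encodes FRA-1, had 36, 43 and 49 reads, or 1.14, 1.48 and 1.56 TPM (1.39 ± 0.223, 39.5th percentile). FOS, the classical serum-induced partner of JUN, had 26, 30 and 46 reads, or 0.478, 0.602 and 0.851 TPM (0.644 ± 0.190, 34.1st percentile). FOSB had 49, 36 and 52 reads, or 0.526, 0.421 and 0.561 TPM (0.502 ± 0.0727, 32.5th percentile). FOSL2 exceeded FOS 44.1-fold per length, and 31.2-fold to 56.0-fold in the separate libraries. FOS, FOSB and FOSL1 all lay in the lower part of the protein-coding distribution, yet each was above 10 reads in every library.

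Outside the JUN and FOS families, IER2 and ATF3 were well expressed and EGR1 was low. IER2, a nuclear protein gene induced by growth factors, had 1604, 1710 and 1791 reads, or 31.1, 36.1 and 34.9 TPM (34.1 ± 2.63, 78.6th percentile), with replicate 1 below the others. ATF3, a stress-induced basic leucine zipper gene, had 859, 822 and 886 reads, or 12.7, 13.2 and 13.1 TPM (13.0 ± 0.296, 60.8th percentile). EGR1, a zinc finger factor gene induced through SRF, had 53, 66 and 58 reads, or 1.01, 1.37 and 1.11 TPM (1.16 ± 0.186, 38.2nd percentile). IER2 exceeded EGR1 29.6-fold per length and ATF3 exceeded it 11.3-fold. EGR1, like the 3 low FOS genes, lay far below IER2 and ATF3 in all 3 libraries.

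**Figure D2:**
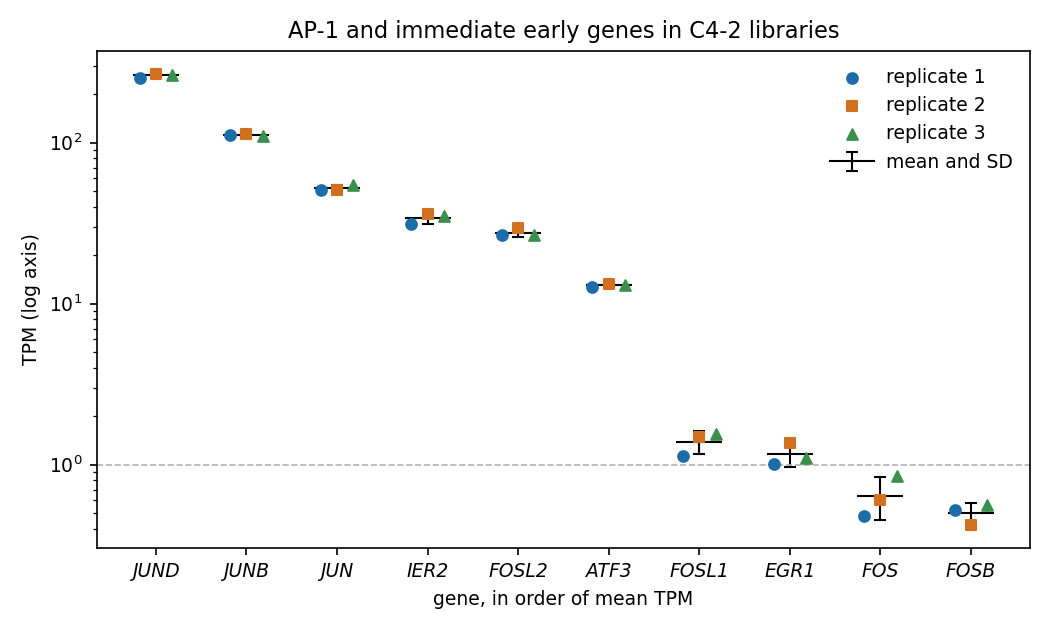
TPM of the 10 genes (log axis) in replicates 1, 2 and 3, with the mean and SD as black bars, in order of mean TPM; the dashed line marks 1 TPM. JUND to ATF3 lie between 12.7 and 268 TPM, and FOSL1, EGR1, FOS and FOSB between 0.421 and 1.56 TPM.

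The order of the mean levels was JUND, JUNB, JUN, IER2, FOSL2, ATF3, FOSL1, EGR1, FOS and FOSB. In 7 of the 9 neighbouring pairs the library ranges did not overlap. The widest step was from ATF3 to FOSL1, 9.44-fold, and the lowest ATF3 library was 8.14 times the highest FOSL1 library. JUND exceeded JUNB 2.35-fold, JUNB exceeded JUN 2.14-fold and FOSL2 exceeded ATF3 2.12-fold. IER2 exceeded FOSL2 1.23-fold, with the nearest libraries 1.06-fold apart. FOSL1 and EGR1 overlapped, with FOSL1 higher within 3 of 3 libraries, and FOS and FOSB overlapped, with FOS higher in 2 of 3. Two-sided exact sign-flip permutation tests of the log2 differences gave p = 0.25 for 8 pairs, the smallest that 3 libraries allow, and p = 0.5 for FOS and FOSB (Benjamini-Hochberg adjusted over the 9 pairs, 0.281 and 0.5). No pair could therefore pass 0.05.

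All 10 genes reached 10 reads in every library, which 71.8% of protein-coding genes did. A mean of 1 TPM was reached by 8 of 10, against 62.7% of protein-coding genes, and 10 TPM by 6 of 10, against 42.9%. The median log2(TPM + 0.1) of the 10 genes lay 1.79 ± 0.0406 (SD, n = 3) above the median of all protein-coding genes, and 0.26 above it when only genes with at least 10 reads in every library were compared. The median describes few of them, since 6 lay above the protein-coding median and 4 below it.

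**Figure D3:**
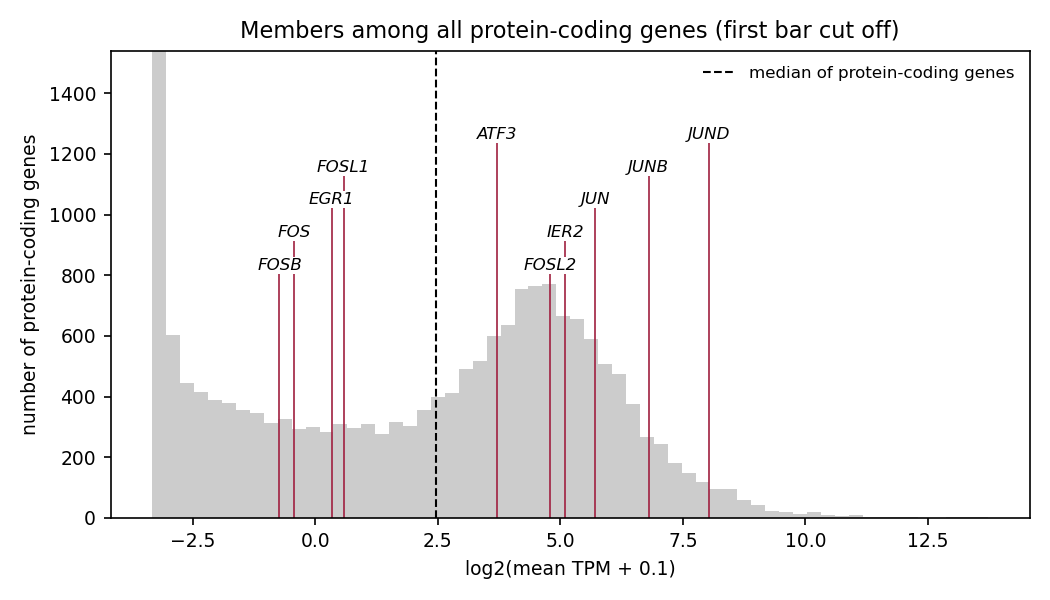
Histogram of log2(mean TPM + 0.1) over 19708 protein-coding genes, with the first bar cut off, and a line at the level of each of the 10 genes. FOSB, FOS, EGR1 and FOSL1 lie left of the dashed protein-coding median, and ATF3, FOSL2, IER2, JUN, JUNB and JUND right of it.

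Messages of JUN proteins outweighed those of FOS proteins. The summed level of JUN, JUNB and JUND was 416, 432 and 430 TPM in replicates 1, 2 and 3, and that of FOS, FOSB, FOSL1 and FOSL2 was 28.9, 32.0 and 29.5 TPM. The groups of sums lay far apart, and the JUN sum was 14.1-fold the FOS sum, a log2 difference of 3.82 ± 0.0582 (SD, n = 3; 3 of 3 libraries; two-sided exact sign-flip permutation p = 0.25, the smallest possible). As a difference of mean log2(TPM + 0.1) over the genes of each family it was 5.81, since FOSL2 carries most of the FOS sum. JUND made up 57.5 ± 0.365% of the summed TPM of the 7 genes, JUNB 24.4 ± 0.493%, JUN 11.4 ± 0.431% and FOSL2 6.05 ± 0.288%. FOSL1 made up 0.304 ± 0.0435%, FOS 0.141 ± 0.0400% and FOSB 0.110 ± 0.0170%. Within the FOS family, FOSL2 held 91.6 ± 1.42% of the TPM. Levels of RNA say nothing here of protein amounts.

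The spread between libraries was small for the abundant genes and larger for the rare ones. The coefficient of variation of TPM was 1.11% for JUNB, 2.28% for ATF3, 2.79% for JUND, 4.01% for JUN, 5.85% for FOSL2 and 7.73% for IER2. It was 14.5% to 16.1% for FOSB, EGR1 and FOSL1 and 29.5% for FOS. FOS thus had the widest range, 1.78-fold from its lowest to its highest library, on 26 to 46 reads.

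Whether the counts of a gene varied more than reads drawn in proportion to TMM-scaled library size was tested by chi-square. This called 4 of the 10 genes at a Benjamini-Hochberg adjusted p under 0.05, where 46.1% of 21039 tested genes were called. The 4 were JUN (adjusted p = 3.24e-05), IER2 (0.000211), JUND (0.000218) and FOSL2 (0.0279). FOS missed the threshold (adjusted p = 0.0642), and JUNB, ATF3, FOSL1, EGR1 and FOSB had adjusted p from 0.373 to 0.545. Even numbers made up 78.7% to 84.6% of the gene counts from 1 to 10, a pattern that arises when both mates of a pair are counted. With the statistic divided by 2 to allow for this, 3 of the 10 were called, against 17.6% of tested genes: JUN (0.0163), IER2 (0.0365) and JUND (0.0369), but not FOSL2 (0.264). Shares this near those of all tested genes say nothing particular of these 10.

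For every called gene, leaving out 1 library could remove the call, though this also left fewer reads to test. The share called over all tested genes fell as well, from 46.1% to 32.8%, 23.9% and 23.8% without replicates 1, 2 and 3. IER2 was not called without replicate 1 (adjusted p = 0.759), which held its lowest value, and JUN and JUND were not called without replicate 3 (0.662 and 0.170). FOSL2 was not called without replicate 1 (0.0897) or without replicate 2 (0.596). On CPM, reads scaled to TMM library size without regard to length, replicate 3 was the highest library for 8 of the 10 genes, and 36.1% of detected genes peaked there. On TPM, replicate 2 was the highest for 6 of 10, and 46.8% of detected genes peaked there, so the scale decides this for 4 of the 10. JUN, FOS, FOSB and FOSL1 peaked in replicate 3 and FOSL2 and EGR1 in replicate 2 on all 3 scales tried. Replicate 1 was highest for none of the 10 on any of the 3, and 28.5% to 29.0% of detected genes peaked there.

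**Figure D4:**
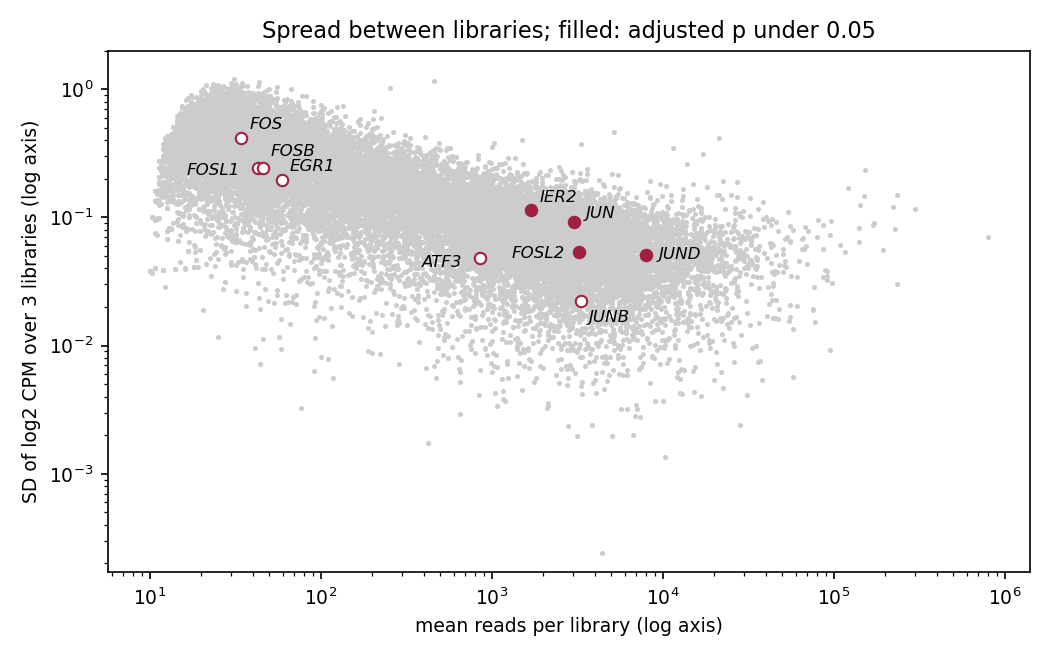
SD of log2 CPM over the 3 libraries (log axis) against mean reads per library (log axis), with all 21039 detected genes in grey and the 10 genes in red. Filled symbols, for JUN, IER2, JUND and FOSL2, passed an adjusted p of 0.05, and the 10 genes lie within the grey cloud.

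Counting limits touched 3 of the genes. The tables ignore strand, and reads over exons of more than 1 gene were dropped. IER2, on chromosome 19 (13150415 to 13154908, plus strand), shares 946 of its 3072 exon bases (30.8%) with an antisense long non-coding gene, ENSG00000267598. All 946 exon bases of that gene lie within IER2 exons. Its 0 reads in every library thus follow from the counting and say nothing of its level. With length counted over unshared exon bases alone, IER2 lay at 46.8 TPM and JUN at 49.7 TPM, and the number of neighbouring pairs without overlap was 6 rather than 7. JUNB, on chromosome 19 (12791496 to 12793315, plus strand), shares 259 bases (14.2%) with HOOK2 and lay at 124 TPM on unshared bases. FOSL1, on chromosome 11 (65892049 to 65900573, minus strand), has a processed pseudogene on chromosome 4, FOSL1P1, 94.5% identical over 817 aligned bases. FOSL1P1 was listed with 36, 33 and 52 reads, near the 36, 43 and 49 of FOSL1 itself, and per length reached 3.02 ± 0.687 TPM, so the split between them is uncertain. Apart from IER2 and JUNB, no gene of the 10 shares an exon base with another gene in the tables.

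JUN (chromosome 1, 58780788 to 58784327, minus strand), JUNB and JUND (chromosome 19, 18279760 to 18281622, minus strand) each formed a single exon block in the tables. ATF3 (chromosome 1, 212565334 to 212620777) had 5 exon blocks, FOSL2 (chromosome 2, 28392448 to 28417312) 7, FOSB (chromosome 19, 45467995 to 45475179) and FOS (chromosome 14, 75278774 to 75282230) 3 each, and EGR1 (chromosome 5, 138465490 to 138469315) 2, all on the plus strand. JUNB, JUND, FOSB and IER2 thus all lie on chromosome 19. JUND, at 262 TPM, and FOSB, at 0.502 TPM, stand at opposite ends of the order on that chromosome.

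Other immediate early genes ranged from abundant to not detected. Of 25 such genes, 22 were detected, 19 reached 1 TPM and 13 reached 10 TPM. The growth factor-responsive gene MYC led at 292 ± 5.01 TPM, followed by the survival gene MCL1 at 105 ± 5.61 and the antiproliferative genes BTG1 at 83.9 ± 7.01 and BTG2 at 43.8 ± 2.75. The lowest detected was the nuclear receptor gene NR4A3 at 0.160 ± 0.0322 TPM. The EGR1 relatives EGR2, EGR3 and EGR4, named after their values were seen, had at most 24 reads in any library, so all 4 EGR genes were low. The IER2 relative IER5, also named after its values were seen, lay at 11.8 ± 0.232 TPM. The variation test called 5 of 22, against 46.1% of all tested genes, and 3 with the statistic divided by 2, against 17.6%.

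Most other basic leucine zipper partners were detected. Of 13, 12 were detected and 8 reached 10 TPM. ATF4, the integrated stress response factor gene, lay at 498 ± 6.39 TPM, above JUND, and the small MAF gene MAFK at 45.8 ± 0.963 and the stress-induced gene DDIT3 at 34.5 ± 2.68. BATF3 was the lowest detected, at 0.514 ± 0.141 TPM, a level like that of FOSB. The variation test called 4 of 12, against 46.1% of all tested genes, and 1 with the statistic divided by 2, against 17.6%.

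The factors and kinases that switch these genes on were all detected. SRF lay at 70.4 ± 3.08 TPM, its partner genes ELK1, ELK4 and ELK3 at 69.7 ± 3.13, 51.3 ± 4.17 and 6.48 ± 0.551, and the actin-regulated coactivator genes MRTFA and MRTFB at 29.6 ± 1.36 and 16.8 ± 0.620. The cAMP response factor genes ATF1, CREB1 and CREM lay at 24.8 ± 1.57, 16.8 ± 1.73 and 6.001 ± 0.311 TPM. All 9 were thus higher than EGR1, FOS and FOSB, which are known targets of SRF and CREB1. Of 13 MAP kinase pathway genes, 12 reached 10 TPM, with MAP2K2 at 118 ± 2.57, MAP2K1 at 73.8 ± 2.21, RPS6KA1 at 55.7 ± 0.871 and the ERK1 gene MAPK3 at 42.3 ± 2.85. The neuronal JNK gene MAPK10 was the lowest detected at 0.0491 ± 0.0109 TPM. In these lists 6 of 9 and 9 of 13 genes were called variable, against 46.1% of all tested genes. With the statistic divided by 2, 4 and 6 were called, against 17.6%. Whether these lists differ from other genes was not tested.

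Most feedback inhibitors of the pathway were detected. Of 15, 14 were detected and 8 reached 10 TPM, led by the phosphatase genes DUSP2 at 93.2 ± 4.62 TPM, DUSP16 at 55.6 ± 1.88, DUSP4 at 32.7 ± 0.657 and DUSP1 at 32.3 ± 1.69. DUSP5 was the lowest detected, at 1.30 ± 0.757 TPM. DUSP6, an ERK phosphatase gene named after its values were seen, had 12, 6 and 20 reads, with 40.5% of its exon length shared with a gene on the opposite strand. The variation test called 3 of 14, against 46.1% of all tested genes, and 1 with the statistic divided by 2, against 17.6%.

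The listed genes that act on turnover of JUN and FOS proteins, or on JUN as a coactivator, were all detected. RNF187, which encodes a JUN coactivator ligase, lay at 351 ± 4.79 TPM, the JUN ligase gene ITCH at 28.9 ± 2.65 and COP1 at 22.8 ± 1.33. The kinase and ligase gene MAP3K1 lay at 11.5 ± 0.608 TPM, FBXW7, whose product targets phosphorylated JUN, at 6.97 ± 0.462, and DET1, which works with COP1, at 2.19 ± 0.173. Of the 7, 3 were called variable, against 46.1% of all tested genes, and the same 3 with the statistic divided by 2, against 17.6%.

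Few genes known as AP-1 targets in other cells were detected. Of 17, 6 were detected and 2 reached 10 TPM: the cyclin D1 gene CCND1 at 260.2 ± 7.90 and the heme oxygenase gene HMOX1 at 33.7 ± 1.11. TIMP1 followed at 3.91 ± 0.681 TPM and the growth factor gene HBEGF at 3.30 ± 0.939, and the urokinase receptor gene PLAUR was the lowest detected at 1.32 ± 0.217. No read fell on MMP3, IL6 or AREG, a trio singled out with their values known. A count of 0 in the smallest library still allows 0.0631 CPM (3 reads), or 0.126 CPM (6 reads) where both mates count. The difference between the list median and the protein-coding median was −4.94 ± 0.217 (log2, SD, n = 3), against 1.79 for the 10 genes. The variation test called 3 of 6, against 46.1% of all tested genes, and 1 with the statistic divided by 2, against 17.6%.

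**Figure D5:**
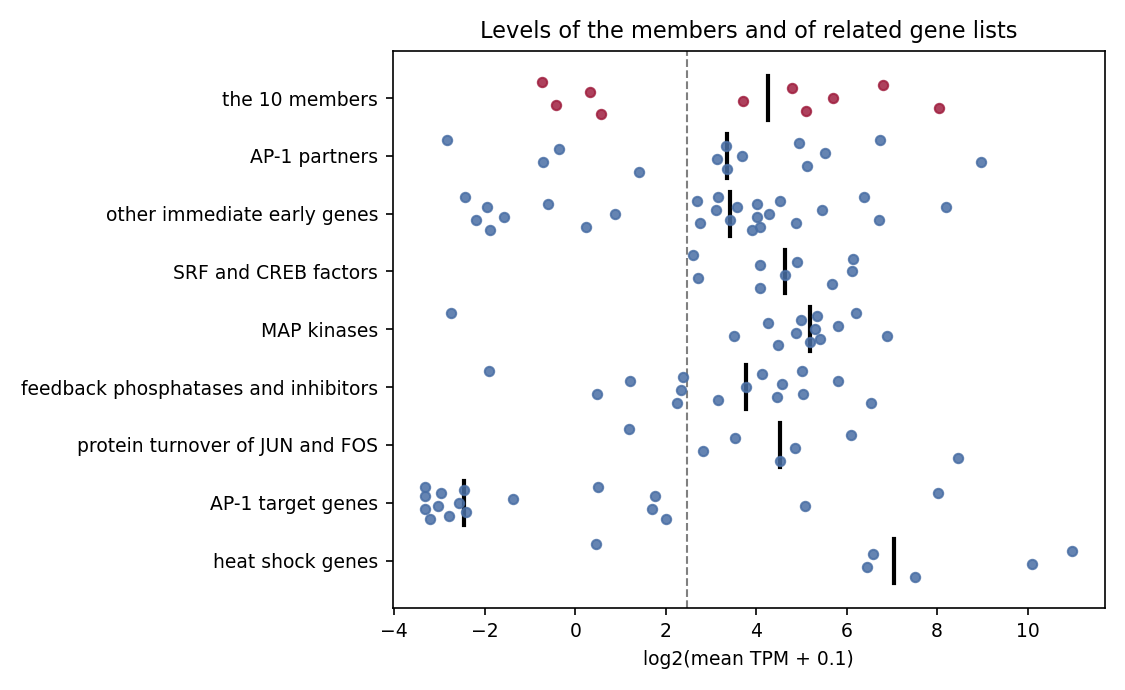
Levels as log2(mean TPM + 0.1) of the 10 genes (red) and of each gene in 8 related lists (blue), with list medians as black bars and the protein-coding median as a dashed line. The AP-1 target list is the only one of those shown whose median lies left of the dashed line.

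Heat shock genes, many but not all of which rise with stress, were detected in all 6 cases. Whether their levels reflect cell handling was not tested. HSPB1 lay at 2032 ± 107 TPM, HSPA8 at 1101 ± 18.1, HSPA1B at 183 ± 0.284, HSPH1 at 96.1 ± 5.02, DNAJB1 at 87.0 ± 2.31 and HSPA1A at 1.27 ± 0.244. HSPA1A and HSPA1B are near-identical copies, so their split is uncertain. The heat shock sum lay between 3380 and 3581 TPM in the 3 libraries. The variation test called 4 of 6, against 46.1% of all tested genes, and 2 with the statistic divided by 2, against 17.6%.

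The libraries held 47513470 to 51200272 assigned reads, of which the 10 genes took 0.0395% to 0.0418%. Prostate luminal markers fitted the label, with 10 of 10 detected and a summed level of 4245 to 4322 TPM. Most markers of other cells were not detected. Of 6 fibroblast markers 2 were detected, COL1A1 and PDGFRB (list sum 11.2 to 11.9 TPM, with COL1A2 at 0 reads). A mean of 10 TPM was reached by 1 of the 6. Of 3 endothelial markers 1 was detected, VWF (list sum 3.55 to 3.91 TPM). Of 5 blood markers 0 were detected (list sum 0.215 to 0.889 TPM, with CD3E and HBB at 0). Of 3 basal markers 1 was detected, KRT14 (list sum 0.866 to 1.08 TPM, with KRT5 and TP63 at 0).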

How the data were processed

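Total RNA of 3 C4-2 libraries was sequenced. Per the file headers, the deposited values are raw counts of reads per gene, made by the authors with featureCounts 1.6.3 on Ensembl release 90 (GRCh38), with no option for strand, pairs or multi-mapping reads. STAR 2.7.0f is named in the submitters' processing notes. Counts were not normalised.

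Symbols came from GENCODE release 44 (57532 of 58302 identifiers matched). TPM was computed from counts and the deposited exon lengths, and log2 values used a pseudocount of 0.1. Detection meant at least 10 reads in every library. Variation was tested by chi-square against TMM sizes (edgeR 4.0.16, R 4.3.3), with Benjamini-Hochberg adjustment over 21039 detected genes. Before this, the test was run on simulated counts with planted changes and otherwise only counting error between libraries. That check could not show how the test behaves where libraries differ by more. Other steps used Python 3.11.15 with scipy 1.17.1, and near copies were found with blastn.

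The 10 genes, the lists and the tests were chosen with earlier results of these data known. In lists of up to 10 genes all were named, and in longer ones the 4 highest and the lowest detected, except a few items that are not reported here. With no contrast between groups, edgeR's quasi-likelihood test could not be applied. Alternatives covered scaling, exon length, filters, pseudocount and left-out libraries. No interval or limit covers more than counting error.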

Additional observations from a re-analysis of the deposited data

How the results depend on the processing

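The number of genes above 10 TPM was 6 under every alternative tried. The median level of the 10 genes above protein-coding genes was 1.64 with log2(TPM + 1), 1.63 on unshared exon bases and 0.26 among detected genes. The number of genes called variable was 0 when the chi-square statistic was divided by its median ratio over all genes, 4.83. In that setting 2.31% of tested genes were called. Without replicates 1, 2 and 3 in turn, 2, 3 and 2 of the 10 were called, against 32.8%, 23.9% and 23.8% of tested genes. The log2 difference of JUN minus FOS was positive under the alternatives tried, from 3.80 to 5.81. Neighbouring pairs without overlap numbered 9, 8 and 7 without replicates 1, 2 and 3, and 6 on unshared exon bases. Scaling TPM to protein-coding nuclear genes raised all levels about 1.52-fold (FOS to 0.980, JUND to 398 TPM). No paired analysis was possible because there is 1 group. Depth limits FOS, FOSB, FOSL1 and EGR1, which rest on 26 to 66 reads a library.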

Other observations

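Among the 3 NR4A nuclear receptor genes, which are also immediate early genes, NR4A1 was the highest. It lay at 19.3 ± 0.340 TPM (SD, n = 3), NR4A2 at 0.558 ± 0.133 and NR4A3 at 0.160 ± 0.0322. The antisense gene FOSL2-AS1, which shares no exon base with FOSL2, had 26, 16 and 31 reads in replicates 1, 2 and 3. The ERK phosphatase gene DUSP5 had 23, 82 and 58 reads, a wider range than that of FOS, and was called variable by chi-square (adjusted p = 2.14e-07, and 0.00179 with the statistic divided by 2). These genes were singled out after their values were seen.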
